A study of Mus musculus with 16 samples.

Results

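The genes described here encode the secreted BMP, activin and TGF-beta ligands, their receptors, the proteins that bind the ligands outside the cell, the Smad proteins that carry the signal to the nucleus, and the target genes Msx1 and Msx2. They were chosen by gene symbol: 43 symbols were listed, and each matched a single feature among the 23234 features of the deposited tables. All samples were wild-type male CD1 mouse embryos, and the labels state that none was pooled. At E10.5 the dorsal and the ventral part of the cloaca, the shared embryonic chamber of gut and urinary tract, of 4 embryos were dissected by laser from cresyl violet-stained cryosections. At E13.5 the hindgut and the urethra, labelled as epithelium of the hindgut and rectum and of the pelvic urethra, were cut from 4 other embryos. The tables hold 1 FPKM value (mapped fragments relative to transcript length and library size) per gene and region, and no value per library, so that no difference below has a replicate check, an error or a p-value. The study's stated long-term aim was a transcriptional atlas of the genital tubercle and urethra.

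BMP, activin and TGF-beta ligands are dimers that bring together type I and type II receptor kinases. BMP receptors phosphorylate Smad1, Smad5 and Smad9, whereas activin and TGF-beta receptors phosphorylate Smad2 and Smad3, and both sets act in the nucleus with Smad4. Secreted antagonists such as Noggin and Follistatin keep ligands from their receptors, and the inhibitory Smads, Smad6 and Smad7, limit the signal inside the cell. In the mouse, Bmp7 is required for the cloaca to divide properly and for normal urethral development, and BMP4 signalling acts in the genital tubercle.

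A regional difference is given as ventral minus dorsal of log2(FPKM + 1), and urethra counts as ventral and hindgut as dorsal. A feature counted as regionally higher when the difference reached 1 (2-fold on this scale) and it had at least 1 FPKM in either region. This is a rule of size, not of significance. The pseudocount of 1 understates the difference of low genes, and in bulk tissue fewer cells of a type and less RNA per cell cannot be told apart.

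Epithelial markers were high in every region: the 10 genes listed, Epcam and Cdh1 among them, summed to 1925 FPKM in dorsal and 1803 in ventral cloaca, 3238 in hindgut and 1785 in urethra. None stood higher ventrally at either age, 1 stood higher dorsally at E10.5 and 2 in hindgut at E13.5. Their median difference was -0.17 at E10.5, with 4 of 10 above 0, and -0.64 at E13.5, with 1 of 10 above 0. Markers of mesenchyme were present as well, 12 genes with a sum of 86.5, 96.2, 72.8 and 48.4 FPKM in the same order. Prrx1 alone gave 44.7 and 65.1 FPKM of the sums in dorsal and ventral cloaca. Of the 12 genes, 1 stood higher ventrally and 3 dorsally at E10.5, and 1 and 3 at E13.5. Markers of surface ectoderm and stratified epithelium, 6 genes, summed to 13.6 FPKM dorsally and 189 ventrally at E10.5 (5 higher ventrally, Krt14 listed at 0 dorsally), and at E13.5 to 812 in hindgut against 1280 in urethra (2 higher in urethra). Red blood cell markers, 7 features, summed to 886 and 1183 FPKM in dorsal and ventral cloaca (2 higher ventrally) and to 35.3 and 76.7 in hindgut and urethra (2 higher in urethra). The 6 endothelial markers summed to 0.89 and 10.6 FPKM at E10.5, of which Esam alone, the only one counted as higher ventrally, gave 8.63, and to 0.45 and 0.54 at E13.5. The 6 markers of neurons and neural crest stayed below 1 FPKM in all regions. The part of these cell types in the differences below was not tested.

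The 43 listed signalling genes stood higher on the ventral side more often than on the dorsal side at both ages. The list was chosen with earlier results of these data known, so its shares describe the list and are not a test. At E10.5, 12 members were at least 2-fold higher in ventral cloaca and 4 in dorsal cloaca. The other 27 comprised 18 within 2-fold and 9 below 1 FPKM in both regions. The 12 and 4 were 35.3% and 11.8% of the 34 members above the minimum, against 10.6% and 9.62% of the 12379 features above it. At E13.5, 7 members passed 2-fold towards urethra and none towards hindgut, 28 were within 2-fold and 8 were below the minimum. The 7 were 20.0% of 35 members, against 4.16% of 12369 features for urethra and 4.59% for hindgut. The median difference of the members above the minimum was 0.43 at E10.5, where it was 0.04 over all such features, and 0.19 at E13.5, where it was 0.01. Over all 43 members it was 0.12 and 0.19. Raising the pseudocount to 5 left 6 ventral and 1 dorsal members at E10.5, against 3.24% and 2.63% of features, and 2 in urethra and none in hindgut at E13.5, against 1.4% and 1.84%. Lowering it to 0.1 gave 12 and 4 at E10.5, against 14% and 12.7% of features. At E13.5 it gave 9 in urethra and 1 in hindgut, against 6.99% and 6.65%.

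**Figure D1:**
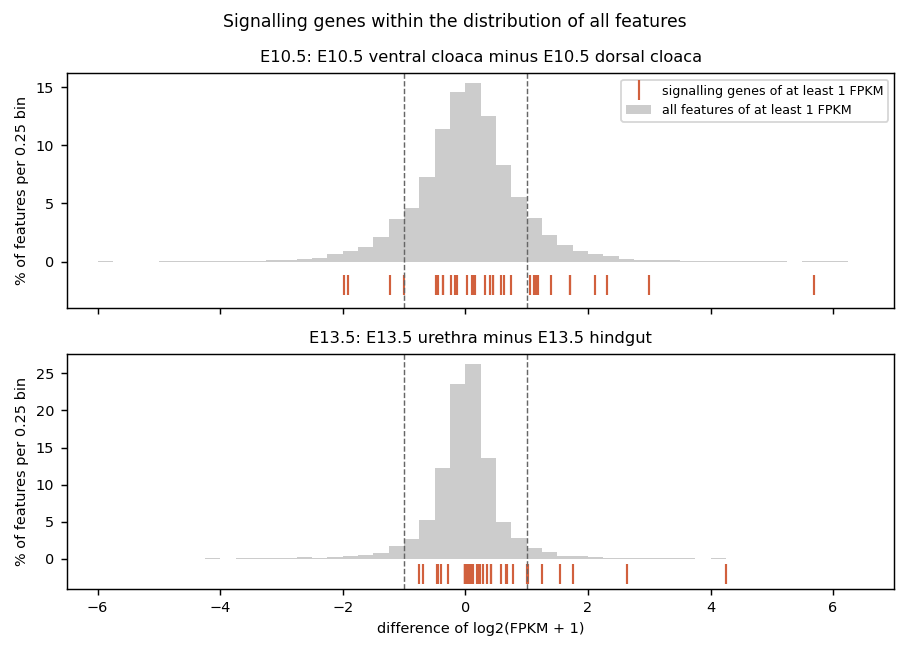
Difference of log2(FPKM + 1), ventral minus dorsal, on the horizontal axis, with the percentage of all features above the minimum per bin as grey bars and each signalling gene above the minimum as an orange tick, for each age. Dashed lines mark 2-fold; 12 ticks lie past the right line and 4 past the left at E10.5, and 7 and 0 at E13.5.

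**Figure D2:**
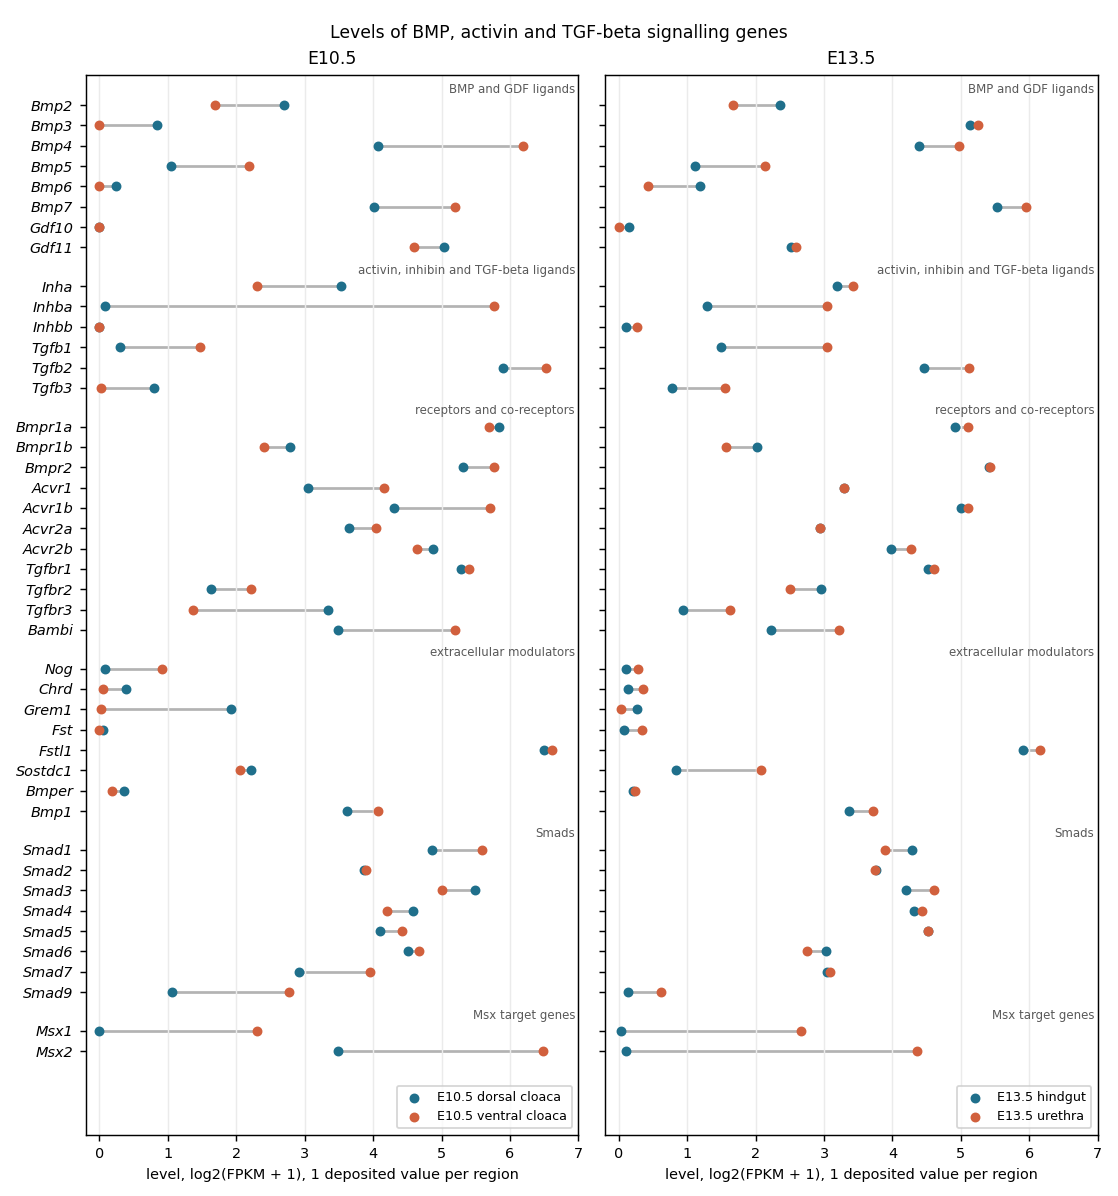
Level of each of the 43 genes on a log2(FPKM + 1) axis, with the dorsal region in blue, the ventral region in orange and a grey line joining both, grouped by role. Each point is 1 deposited value without an error; the longest lines are those of Inhba at E10.5 and Msx2 at E13.5, and the lines of Bmpr2, Smad2 and Smad5 at E13.5 are among the shortest.

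Among the BMP and GDF ligands, Bmp4 and Bmp7 had the largest ventral differences at E10.5. Bmp4, which signals through the BMP type I receptors, stood at 72.1 FPKM in ventral and 15.8 in dorsal cloaca, a difference of 2.12. Bmp7 stood at 35.6 against 15.2 FPKM, a difference of 1.18. Bmp5, a relative of Bmp7, had a lower level, at 3.55 against 1.07 FPKM, with a difference of 1.14. Bmp2, the close paralogue of Bmp4, was the only ligand of this group at least 2-fold higher dorsally, at 5.50 against 2.23 FPKM, and its difference of -1.01 lay just past the limit. Gdf11, which acts through activin receptors and patterns the posterior body axis, was the most abundant of these ligands dorsally, at 31.8 FPKM, and stood at 23.1 ventrally. Bmp4 made up 52.8% of the summed FPKM of the 8 genes in ventral cloaca and 22.5% in dorsal cloaca, and Gdf11 made up 16.9% and 45.2%. Bmp3 at 0.80 FPKM and Bmp6 at 0.18 were low dorsally and listed at 0 ventrally, and Gdf10 was listed at 0 in both.

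At E13.5, 1 of the 7 ligands above the minimum was counted in either direction, where 4 of 5 were at E10.5. Over all features, the share counted in either direction was 8.76% at E13.5 and 20.2% at E10.5. Bmp7 was the most abundant, with 60.8 FPKM in urethra against 45.1 in hindgut, a difference of 0.42. Bmp3, an atypical member that opposes other BMPs, had 37.0 FPKM in urethra against 34.1 in hindgut. Bmp4 had 30.3 and 19.9 FPKM, a difference of 0.58 that was within 2-fold. Bmp5 alone of the 8 stood at least 2-fold higher in urethra, at 3.40 against 1.16 FPKM, with a difference of 1.02 that became 0.97 under quantile normalization. Bmp2 had 2.18 FPKM in urethra against 4.11 in hindgut (-0.69), so that it kept its higher value on the dorsal side without reaching 2-fold. Bmp6 had 0.34 FPKM in urethra and 1.27 in hindgut (-0.76), within 2-fold only on the scale with a pseudocount of 1. With a pseudocount of 0.1 its difference was -1.64, past 2-fold towards hindgut. It was below the minimum at E10.5. Gdf11 had 5.05 and 4.74 FPKM, and Gdf10 stayed below 0.12 in both.

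Of the activin, inhibin and TGF-beta ligands, Inhba set the regions apart most. Inhba, which encodes the beta A subunit shared by activin A and inhibin A, stood at 53.2 FPKM in ventral and 0.056 in dorsal cloaca. This difference of 5.68 ranked 6 among the 12379 features. Inha, the alpha subunit that turns a beta subunit from activin into inhibin, went the other way, at 3.92 FPKM ventrally and 10.5 dorsally (-1.23). Inhba thus exceeded Inha in ventral cloaca, and Inha exceeded Inhba in dorsal cloaca. Inhbb, the beta B subunit, was listed at 0 in both. At E13.5 Inhba had 7.26 FPKM in urethra and 1.45 in hindgut, a difference of 1.76, and Inha had 9.71 and 8.16, a difference of 0.23.

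Tgfb2 was the main TGF-beta transcript in all regions. It stood at 90.7 FPKM in ventral and 58.5 in dorsal cloaca (0.63), and at 33.9 in urethra and 21.1 in hindgut (0.66), so that neither age reached 2-fold. Tgfb1 was low but at least 2-fold higher on the ventral side at both ages, at 1.77 against 0.23 FPKM at E10.5 (1.17) and 7.21 against 1.81 at E13.5 (1.55). Macrophages are a known source of Tgfb1, and the 6 macrophage markers moved with it at E13.5 only: they summed to 14.5 FPKM in urethra and 0.043 in hindgut, where C1qa, C1qb and Ptprc were listed at 0. All 4 of those above the minimum stood higher in urethra, with C1qb at 7.60 FPKM and C1qa at 2.40. At E10.5 the same markers summed to 1.80 FPKM ventrally and 1.91 dorsally, with none counted in either direction. Their part in the Tgfb1 difference was not tested. Tgfb3 stood at 0.74 FPKM dorsally and 0.012 ventrally at E10.5, below the minimum, and at E13.5 it had 1.94 FPKM in urethra against 0.72 in hindgut.

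**Figure D3:**
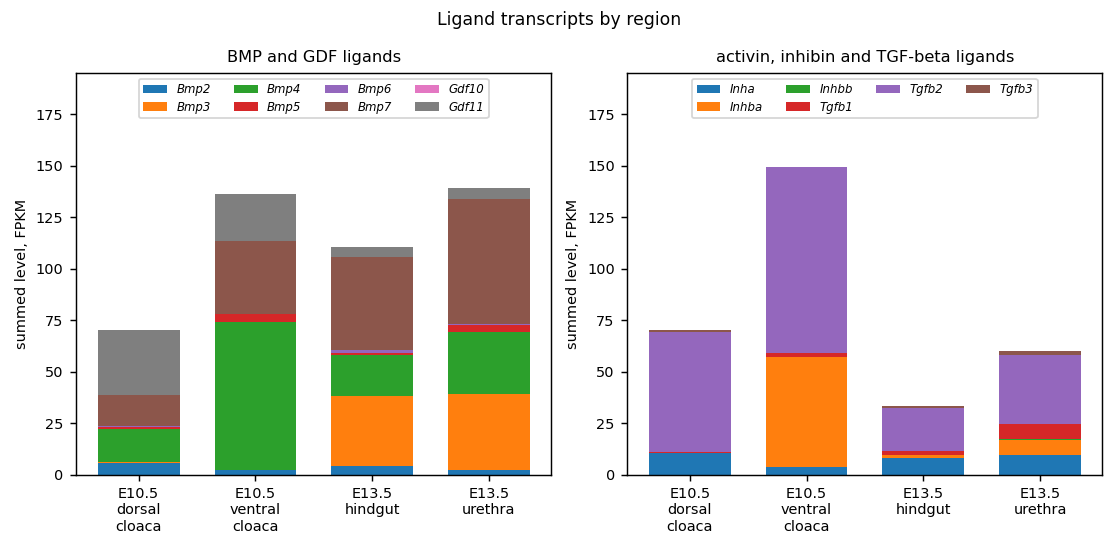
Stacked bars of the FPKM of each ligand gene in the 4 regions, for the BMP and GDF ligands on the left and the activin, inhibin and TGF-beta ligands on the right, on axes that start at 0. Bmp4 makes up 52.8% of the left bar of ventral cloaca and Inhba 35.6% of the right bar; the ages were normalized in separate tables.

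The receptors were expressed on both sides. Of the 11 members of the receptor group, 3 were counted as higher ventrally and 1 dorsally at E10.5, where 20.2% of all features were counted in either direction, and 1 was counted as higher in urethra at E13.5, where 8.76% were. Bmpr2, the type II receptor for BMPs, stood at 53.6 FPKM in ventral and 38.9 in dorsal cloaca, and at 42.0 in urethra and 41.3 in hindgut. Bmpr1a, the main BMP type I receptor of many embryonic tissues, stood at 50.8 and 56.2 FPKM at E10.5 and at 33.5 and 29.2 at E13.5. Tgfbr1, the TGF-beta type I receptor, stood at 41.0 and 38.0, then 23.3 and 22.0 FPKM. Acvr2b, a type II receptor for activins and several BMPs and GDFs, stood at 23.8 and 28.3, then 18.4 and 14.8 FPKM. These 4 receptors were within 2-fold at both ages. Acvr1b, the type I receptor for activin, stood at 51.1 FPKM in ventral and 18.7 in dorsal cloaca (1.40), and at 33.3 and 30.9 FPKM in urethra and hindgut (0.10). Acvr1, a type I receptor for BMPs, stood at 16.9 against 7.30 FPKM at E10.5 (1.11) and at 8.77 in both regions at E13.5. Both genes therefore passed 2-fold at E10.5 only.

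Tgfbr3 and Bambi, which modify receptor use, differed in opposite directions at E10.5. Tgfbr3, the co-receptor betaglycan that presents TGF-beta2 and inhibin, stood at 9.16 FPKM in dorsal and 1.57 in ventral cloaca (-1.98). Inha also stood higher dorsally, whereas Inhba, the beta A subunit of inhibin, stood at 0.056 FPKM there. Tgfb2 was within 2-fold, at 58.5 FPKM dorsally and 90.7 ventrally. A link between these genes was not tested. At E13.5 Tgfbr3 had 2.08 FPKM in urethra against 0.91 in hindgut (0.69). Bambi, a decoy receptor without a kinase that is itself induced by BMP signals, stood at 35.5 against 10.2 FPKM (1.71) at E10.5. At E13.5 it had 8.32 FPKM in urethra and 3.66 in hindgut, a difference of 1.00 that became 0.98 under quantile normalization. The other members, Bmpr1b, Acvr2a and Tgfbr2, ranged from 1.96 to 15.5 FPKM and were within 2-fold at both ages. Acvr2a shares its span in the tables with Orc4, so its reads are less certain to be its own.

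Few of the dedicated antagonists among the members were expressed. Outside the member list, 15 of the 27 other extracellular regulators were above the minimum at E10.5 and 17 at E13.5. Twsg1 had 51.6 FPKM in ventral and 48.9 in dorsal cloaca, and 32.7 in urethra and 31.2 in hindgut. Nbl1 had 1.71 FPKM in ventral cloaca and was listed at 0 dorsally, and it had 8.84 in urethra and 4.23 in hindgut. Nog, Chrd, Fst and Bmper were below 1 FPKM in all 4 regions, and Fst was listed at 0 in ventral cloaca. Nog, which encodes Noggin, came nearest, at 0.88 FPKM in ventral and 0.055 in dorsal cloaca. Chrd shares its span with Thpo, and the 2 features cannot be separated with certainty. Grem1, a BMP antagonist of gut and limb mesenchyme, stood at 2.80 FPKM in dorsal and 0.012 in ventral cloaca (-1.91) and was at most 0.21 FPKM at E13.5. Of the 12 mesenchymal markers, 3 stood higher in dorsal cloaca, Col3a1 at 13.2 against 3.36 FPKM among them, and 1 in ventral cloaca, Twist1 at 9.19 against 1.98. Their sum was 86.5 FPKM dorsally and 96.2 ventrally, of which Prrx1 alone gave 44.7 and 65.1. The median difference of the 8 markers above the minimum was -0.54, and 3 of these had a difference above 0. The part of the mesenchymal markers in the Grem1 difference was not tested. Sostdc1, an antagonist of BMP and Wnt signals, stood at 3.13 FPKM in ventral and 3.63 in dorsal cloaca, and at 3.24 in urethra and 0.78 in hindgut (1.25). Sostdc1 was the only member counted at E13.5 that was not also counted at E10.5.

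Fstl1, a secreted follistatin-like glycoprotein, had the highest level of all 43 members in each region. It stood at 97.1 FPKM in ventral and 89.1 in dorsal cloaca, and at 70.0 in urethra and 58.9 in hindgut, within 2-fold at both ages. Bmp1, which despite its name is a metalloprotease that cleaves procollagens and Chordin, stood at 15.9 against 11.3 FPKM at E10.5 and 12.2 against 9.34 at E13.5.

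Of the 8 Smads, 2 were counted as higher ventrally and none dorsally at E10.5, where 20.2% of all features were counted in either direction. At E13.5 none of the 7 above the minimum was counted, against 8.76% of all features. Smad1, a receptor-activated Smad of the BMP branch, stood at 47.4 FPKM in ventral and 28.0 in dorsal cloaca (0.74), and at 13.8 in urethra and 18.6 in hindgut (-0.40). Smad5, of the same branch, stood at 20.4 and 16.2 FPKM, then at 21.9 in both. Smad9, the third of that branch, was lower but differed most, at 5.82 against 1.09 FPKM at E10.5 (1.71), and was below the minimum at E13.5, at 0.53 against 0.10 FPKM. In the activin and TGF-beta branch, Smad3 stood at 31.3 FPKM ventrally and 44.1 dorsally (-0.48), and at 23.3 in urethra and 17.3 in hindgut (0.41). Smad2 stood between 12.4 and 13.8 FPKM in the 4 regions, and Smad4, the shared partner, between 17.5 and 22.9. Smad6, the inhibitory Smad of the BMP branch, stood at 24.5 and 21.8 FPKM in ventral and dorsal cloaca and at 5.71 and 7.16 in urethra and hindgut. Smad7, which inhibits both branches, stood at 14.5 against 6.53 FPKM at E10.5 (1.05, and 0.98 under quantile normalization) and at 7.52 and 7.27 at E13.5.

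The target genes Msx1 and Msx2 stood on the ventral side at both ages. They encode homeodomain repressors that BMP signals induce in many embryonic tissues. Msx2 stood at 87.9 FPKM in ventral and 10.2 in dorsal cloaca, a difference of 2.99. In urethra it stood at 19.4 against 0.077 FPKM in hindgut, a difference of 4.25 that ranked 15 among 12369 features. Msx1 stood at 3.95 FPKM in ventral cloaca and was listed at 0 in dorsal cloaca, and it had 5.32 FPKM in urethra against 0.021 in hindgut (2.63). Its span is shared with its antisense transcript Msx1as, at 19.2 against 0.83 FPKM at E10.5 and 12.8 against 0.029 at E13.5, and the sources used here do not say whether strand was used, so reads of the pair cannot be told apart. Of the 5 markers of surface ectoderm and stratified epithelium above the minimum, 5 were counted as higher ventrally at E10.5 and 2 at E13.5. Krt15, among them, had 474 FPKM in urethra against 517 in hindgut. Tfap2b, the remaining marker of that list, was at most 0.60 FPKM in any region. The part of these markers in the Msx differences was not tested. On mm10, Msx2 (XLOC_005495) spans chr13:53466881-53472780, Msx1 (XLOC_015852) chr5:37820491-37824585, Inhba (XLOC_004899) chr13:16014475-16027211 and Bmp4 (XLOC_006306) chr14:46379524-46390599, each the span of its feature with exons and introns. The spans of Inhba and Bmp4 leave out the annotated start, which lies 2624 and 70 bases before them. The Bmp4 span is shared with Gm15217, which was at most 0.043 FPKM.

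The 250 bases before the annotated start are shown for the Msx genes and for Id3, BMP targets that stood higher ventrally at both ages, and for Inhba, the member with the largest difference at E10.5. The sequences are from RefSeq on GRCm38.p6, the assembly that mm10 represents, and each reads 5′ to 3′ on the gene's strand up to the base before the start. They lie at chr13:53472781-53473030 (minus strand, Msx2), chr5:37824586-37824835 (minus strand, Msx1), chr4:136143572-136143821 (plus strand, Id3) and chr13:16011601-16011850 (plus strand, Inhba). Capitals mark matches to the Smad box CAGAC, the GC-rich Smad element GGCGCC or the Msx homeodomain motif CAATTA on either strand, and none of the matches overlap.
Msx2: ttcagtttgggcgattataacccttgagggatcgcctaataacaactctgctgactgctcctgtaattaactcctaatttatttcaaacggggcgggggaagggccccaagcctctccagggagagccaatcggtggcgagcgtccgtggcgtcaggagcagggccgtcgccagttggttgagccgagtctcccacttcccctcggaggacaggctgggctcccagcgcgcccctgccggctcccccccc
Msx1: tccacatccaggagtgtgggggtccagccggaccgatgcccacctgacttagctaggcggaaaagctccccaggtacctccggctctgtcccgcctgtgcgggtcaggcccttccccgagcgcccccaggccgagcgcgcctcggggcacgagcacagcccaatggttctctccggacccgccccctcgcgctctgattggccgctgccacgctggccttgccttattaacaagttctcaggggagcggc
Id3: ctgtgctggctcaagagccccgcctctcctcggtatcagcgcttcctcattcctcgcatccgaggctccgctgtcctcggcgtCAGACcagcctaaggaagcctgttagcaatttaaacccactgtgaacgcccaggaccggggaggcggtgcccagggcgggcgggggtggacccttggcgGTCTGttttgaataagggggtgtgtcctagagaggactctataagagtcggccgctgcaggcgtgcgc
Inhba: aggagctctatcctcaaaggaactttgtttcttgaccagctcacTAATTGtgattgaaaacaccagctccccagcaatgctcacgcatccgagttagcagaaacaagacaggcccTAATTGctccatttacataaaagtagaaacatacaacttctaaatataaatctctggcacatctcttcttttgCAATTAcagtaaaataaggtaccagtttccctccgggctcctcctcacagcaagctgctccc
The Id3 window held 2 Smad boxes, at 167 to 163 and at 68 to 64 bases before the start. The Inhba window held 3 matches to the Msx motif, which begin 206, 135 and 62 bases before the start, and the 2 Msx windows held none of the 3 motifs. Among 32851 mouse promoter windows of this length, 42.2% held a Smad box, 9.59% the GC-rich element and 7.17% the Msx motif. Promoter windows were at hand for 30 of the 43 members, and 12 of these held a Smad box in at least 1 window. The annotated start of Inhba lies 2624 bases before the start of its feature in the tables, whereas the starts of Msx1, Msx2 and Id3 coincide with theirs. A match of letters is a description and not a binding site.

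Of the 14 members counted at E10.5 that were above the minimum at both ages, 11 had a smaller difference at E13.5. These 14 were picked for a large difference at E10.5, so a smaller one later is partly set by that choice. The same count was not made over all features. Over all features above the minimum, the median size of the difference was 0.45 at E10.5 and 0.25 at E13.5. Of the 12 members higher in ventral cloaca, 6 were also counted as higher in urethra, namely Bmp5, Inhba, Tgfb1, Bambi, Msx1 and Msx2. Another 5, Bmp4, Bmp7, Acvr1, Acvr1b and Smad7, were within 2-fold at E13.5, and Smad9 was below the minimum. Of the 4 higher in dorsal cloaca, Bmp2, Inha and Tgfbr3 were within 2-fold at E13.5 and Grem1 was below the minimum. How often a feature counted at E10.5 was counted again at E13.5 was not taken over all features. The overlap of the members therefore has no background to be read against. For all features the share counted in either direction was 20.2% at E10.5 and 8.76% at E13.5, so the members and the remaining features were both counted less often at the later age. The difference between the ages was not tested.

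**Figure D4:**
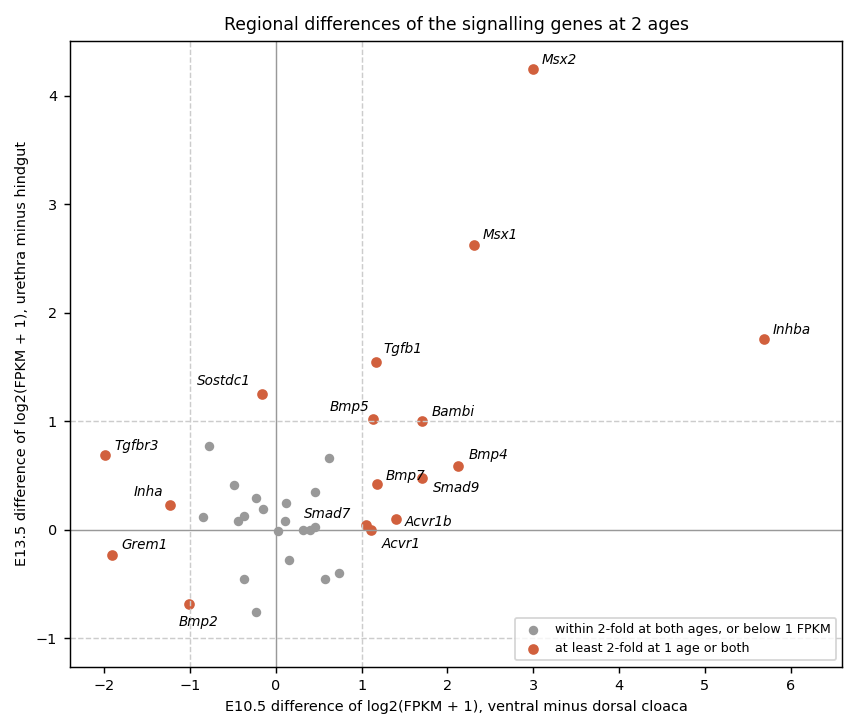
Difference of log2(FPKM + 1) at E10.5 (horizontal) against E13.5 (vertical) for the members with at least 1 FPKM in any region, with dashed lines at 2-fold and names for those counted at 1 age or both. Msx1, Msx2, Inhba, Tgfb1, Bmp5 and Bambi lie past the line on both axes, and Tgfbr3 lies at -1.98 and 0.69.

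The 2 tables were normalized apart, so levels at the 2 ages are set side by side by their percentile among all 23234 features of a region. Bmp3 stood at percentile 49.0 in dorsal cloaca, where it had 0.80 FPKM, and was listed at 0 in ventral cloaca, and it stood at percentiles 90.6 and 91.7 in hindgut and urethra. Gdf11 stood at percentiles 90.5 and 86.5 in dorsal and ventral cloaca and at 63.0 and 63.5 in hindgut and urethra. Smad6 stood at 86.1 and 87.2, then at 68.6 and 65.1. Both sides of the cloaca and of its derivatives thus had similar percentiles for Gdf11 and Smad6 within each age. Bmp7 stood at 80.8 and 91.4, then at 92.9 and 95.2, and Bmpr2 between 92.2 and 94.7 in all 4 regions.

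Of 81 other genes of the pathway, 8 passed 2-fold on the ventral and 4 on the dorsal side among the 46 above the minimum at E10.5, and 3 and 4 among 49 at E13.5. These were 17.4% and 8.7% at E10.5, against 10.6% and 9.62% of all features, and 6.12% and 8.16% at E13.5, against 4.16% and 4.59%. The median differences were -0.02 and 0.07. Tll1, a protease of the Bmp1 family, stood at 14.0 FPKM in ventral and 1.09 in dorsal cloaca (2.85) and at 2.58 in urethra against 0.51 in hindgut (1.24). Gata2, a transcription factor gene, stood at 8.33 against 2.80 FPKM at E10.5 (1.30). At E13.5 it had 1.34 FPKM in urethra against 0.44 in hindgut, a difference of 0.70, within 2-fold on the scale with a pseudocount of 1. Id3, an inhibitor of basic helix-loop-helix factors, stood at 383 against 152 FPKM at E10.5 (1.33) and 214 against 39.0 at E13.5 (2.42), whereas Id1 had 77.6 and 72.0, then 152 and 88.8 FPKM, within 2-fold. Of the 30 other pathway genes with at least 5 FPKM at E10.5, Tll1, Gata2 and Id3 stood higher ventrally, where 8.97% of all features at that minimum did. At E13.5, Id3 alone of 29 stood higher in urethra, where 3.3% of features did. The 19 other ligands were mostly below the minimum, with 2 above the minimum at E10.5 and 3 at E13.5, and the 17 other intracellular regulators included none higher ventrally at either age and 1 higher dorsally at each.

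The hindgut side at E13.5 held other genes of this pathway. Ltbp4, which binds latent TGF-beta in the matrix, stood at 45.7 FPKM in hindgut and 14.6 in urethra (-1.58). Pmepa1, a TGF-beta target that damps Smad signalling, stood at 24.1 against 7.13 FPKM (-1.62). Pcsk6, a convertase that cleaves ligand precursors, stood at 12.2 against 5.34 FPKM (-1.06), and Tob1, an antiproliferative protein that restrains BMP Smads, at 16.9 against 7.27 (-1.11). These 4 were, under this rule, the only genes among the members and the other pathway genes that were at least 2-fold higher in hindgut.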

How the data were processed

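RNA was measured in 16 libraries, 4 groups of 4. Per the labels' protocols, 700 to 1000 pg of RNA from laser-captured sections of 10 µm was amplified before library construction. The authors deposited FPKM values with a single column for each region, per the file headers. The submitters' processing notes name Cufflinks 2.2.1 and mm10. Not given in the sources used here are the aligner, the annotation, strand use and how libraries were combined. The depth is unknown and the tables hold no value per library, so the planned per-library test (a linear model with the embryo as block) was replaced, as laid down for this case, by a description without a test. How the regions were outlined is not given.

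Per age, the difference of log2(FPKM + 1) was taken for features of at least 1 FPKM in either region and counted at 1 or more (Python 3.11.15, pandas 2.3.3, numpy 2.4.6). The computation was tested on simulated data. Values of 0 can be failed estimates, so no fold is given against them, and a difference that rests on one depends on the pseudocount. Features that share a locus span (Acvr2a, Bmp4, Chrd and Msx1 among the members) are uncertain. In the tables, 1 was added to each locus start to count positions from 1.

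The members, the 5 lists of other pathway genes and the 7 marker lists were chosen with earlier results of these data known. Values are given for members counted at either age, of at least 20 FPKM in any region, or listed at 0 in a region, and for other pathway genes counted with at least 5 FPKM in the higher region. Alternatives were other pseudocounts, minimums and scalings, and leaving out uncertain features. Figures were drawn with matplotlib 3.10.9.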

Additional observations from a re-analysis of the deposited data

Results flagged for a closer look

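Tgfbr3 is listed because its regional difference lay on opposite sides at the 2 ages: -1.98 between ventral and dorsal cloaca at E10.5, and 0.69 between urethra and hindgut at E13.5. It was the only member above the minimum at both ages with differences of at least 0.5 in opposite directions. The difference between the ages was not tested, and each value rests on 1 deposited number per region.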

How the results depend on the processing

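No paired analysis was possible because the tables hold 1 value per region and none per embryo, and for the same reason leaving out each replicate was not run. Upper-quartile scaling, no minimum, a minimum of 5 FPKM, a minimum on the mean, and leaving out shared spans or (an alternative chosen after seeing the data) features listed at 0 kept all 4 counts of members within 1.5 times, as did quantile normalization. A pseudocount of 5 left 6 ventral and 1 dorsal members at E10.5, and 2 in urethra at E13.5. It ended the counts of Bmp2, Bmp5, Inha, Tgfb1, Acvr1, Grem1, Smad7, Smad9 and Msx1 at E10.5 and of Bmp5, Inhba, Tgfb1, Bambi and Sostdc1 at E13.5. A pseudocount of 0.1 gave 1 member higher in hindgut, Bmp6, and added Tgfb3 and Tgfbr3 to those higher in urethra. The members' median stayed above 0 throughout. At E10.5 it was 0.45 and 0.30 with pseudocounts of 0.1 and 5, 0.12 with no minimum, 0.36 with a minimum of 5 FPKM, 0.40 with a minimum on the mean or without features listed at 0, 0.39 and 0.37 under upper-quartile scaling and quantile normalization, and 0.32 without shared spans. At E13.5 it was 0.20, 0.16, 0.16, 0.21, 0.21, 0.22 and 0.16 in the same order, leaving out no minimum and features listed at 0, where it stayed at 0.19. Scaling moved the median of all features by less than 0.1. The unknown depth and the lack of values per embryo limit every difference.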
